A study of Rattus norvegicus with 4 samples.

Results

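Hormone-secreting cells captured with the posterior pituitary lobe of the rat were compared with the same kinds of cell captured with the anterior lobe. The cells came from female Sprague Dawley rats aged 75 days that were at random stages of the cycle. From 30 dissected glands, the pooled anterior lobes gave 1 library and the pooled posterior lobes gave 1 library, and a further 30 glands were dispersed whole and the suspension was split over 2 lanes. All cells were freed with trypsin and EDTA and carried no treatment. Messenger RNA was counted as unique molecular identifiers (UMIs), each standing for 1 captured molecule, with the 10x Genomics 3' kit. Because animals were pooled there was 1 library on each side and no replicate animal. Sizes are therefore given with 95% counting intervals, which cover counting error only, and no test was run.

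A cell was kept if it had 1000 or more UMIs from 500 or more genes and if no more than 20% of these were mitochondrial. Kept cells were then put into 4 classes, chosen by the share of UMIs that came from a hormone gene. The Prl class needed at least 20% Prl with under 5% Gh1, and the Gh1 class at least 15% Gh1 with under 5% Prl. The Pomc class needed 5 to 30% Pomc, and the Lhb class at least 0.3% Lhb. The 4 hormone genes thus selected the cells and are given only as a description. The anterior library held 2373 Prl, 1351 Gh1, 269 Pomc and 190 Lhb cells, and the posterior library 491, 407, 218 and 56. In all, 4142 of 5666 kept anterior cells and 1166 of 3936 kept posterior cells met at least 1 rule. These were 5308 cells of the 20381 kept and 32455 deposited barcodes of the series. The whole-gland lanes, with 3854 and 3438 such cells, served as the reference.

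Each class corresponds to a cell type with its own product. Lactotrophs secrete prolactin, somatotrophs growth hormone and gonadotrophs luteinizing and follicle-stimulating hormone, and corticotrophs cut the Pomc precursor to adrenocorticotropin. Melanotrophs of the intermediate lobe also make Pomc, cut it to melanocyte-stimulating hormone, and stay attached to the posterior lobe when a gland is dissected. The posterior lobe proper holds axon endings of hypothalamic neurons and glial cells called pituicytes. Heat shock genes encode chaperones that refold proteins, and immediate early genes encode mostly transcription factors that are induced soon after a cell is stimulated or handled.

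The libraries held 61981865 to 72754998 UMIs in 7424 to 8550 barcodes. The mitochondrial limit removed 45.4% of barcodes from the posterior library and 27.2 to 27.9% from each other library. Between 9 and 20 barcode sequences were shared by any pair of libraries, and at most 4 such pairs had both cells in the classes. Few cells lay near a hormone limit in the posterior library, with 5 cells less than 10% below the Prl limit and 0 just above it, 6 and 5 at the Gh1 limit, and 1 and 3 at the Lhb limit. The upper Pomc limit ran through a denser range there, with 33 posterior cells just above 30% Pomc and 39 just below. At the mitochondrial limit 236 posterior cells lay just above and 253 just below, against 101 and 131 in the anterior library. Some cells met 2 rules at once, the most being 18 anterior and 3 posterior cells in both the Prl and Pomc classes and 16 and 1 in both the Prl and Lhb classes.

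Lactotroph and somatotroph cells made up a smaller share of the posterior library than of the anterior one, while the Pomc class taken whole did not. Prl cells were 41.9% of kept cells in the anterior library (40.6 to 43.2), 12.5% in the posterior (11.5 to 13.6), and 34.3% and 34% in the whole-gland lanes. Gh1 cells were 23.8% (22.7 to 25), 10.3% (9.41 to 11.3), 25% and 25.7%, in the same order. Lhb cells were 3.35% (2.9 to 3.86), 1.42% (1.08 to 1.84), 3.55% and 3.04%. Pomc cells held 4.75% (4.21 to 5.33) of anterior and 5.54% (4.85 to 6.3) of posterior kept cells. Without the Pomc cells marked by Pax7 or Pcsk2 UMIs, described below, the posterior share was 2.49%. That left 98 of 218 posterior but 268 of 269 anterior Pomc cells. The whole-gland lanes lay close to the anterior library for the Gh1 and Lhb classes and between both lobes for the Prl class. The balance of the most frequent classes also differed, at 1.76 Prl cells for each Gh1 cell in the anterior library (1.64 to 1.88), 1.21 in the posterior (1.06 to 1.38) and 1.35 in the whole gland (1.28 to 1.42). A share depends on how many cells of other kinds were captured, so fewer hormone cells and more other cells cannot be told apart.

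**Figure D1:**
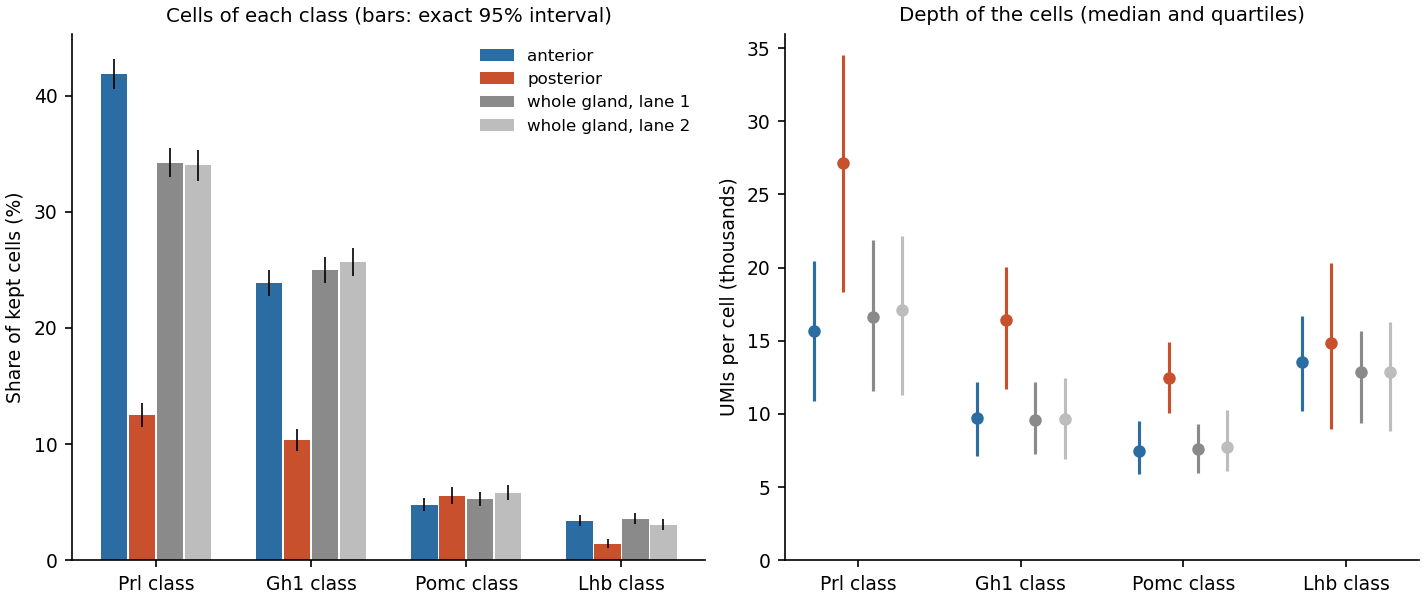
Left, share of kept cells (%) in each hormone class by library, with exact 95% binomial intervals; right, UMIs per cell (in units of 1000) in each class by library, as the median with its quartiles. Posterior cells form the smallest Prl, Gh1 and Lhb shares, and posterior Prl, Gh1 and Pomc cells have the highest medians, at 27148, 16438 and 12432 UMIs.

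Posterior hormone cells carried more UMIs each. The median Prl cell held 15638 UMIs in the anterior library, 27148 in the posterior, and 16599 and 17062 in the whole-gland lanes. Gh1 cells held 9706 and 16438, Pomc cells 7470 and 12432, and Lhb cells 13537 and 14854.5 in the anterior and posterior libraries. The anterior library and both lanes lay together, and the posterior library stood above them in every class, although by little in the Lhb class. Other cells did not share 1 direction: cells with folliculostellate markers held medians of 6302 anterior and 6395 posterior UMIs, macrophages 4502 and 7617, and endothelial cells 9518.5 and 5163. The plot of class shares and depth shows the spread, with quartile ranges of both lobes that overlapped in the Lhb class, slightly in the Prl and Gh1 classes and not in the Pomc class. Genes seen per Prl cell were 2569 in the anterior and 3654 in the posterior library, but 822 and 825 once every cell was thinned to 3000 UMIs. At that fixed depth the medians were 1062 and 1071 genes for Gh1 cells, 1280.1 and 1245 for Pomc cells and 1238 and 1274 for Lhb cells. The depth gap moves with every comparison between both lobes given here, and its part in them was not tested except where cells of like depth were compared.

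Of the hormone genes themselves, which chose the cells, Prl and Gh1 took similar shares of a cell in both lobes. In the posterior library the Lhb share was lower and the Pomc share higher. Median Prl was 47.1% of a Prl cell's UMIs in the anterior and 48.3% in the posterior library. Median Gh1 was 32.7% and 33.7% of a Gh1 cell, and median Lhb 3% and 2.11% of an Lhb cell. Median Pomc was 16% of an anterior and 22.2% of a posterior Pomc cell. Markers of the matching cell type were present in each class, given in CPM, the count per 1000000 UMIs left after the hormone and mitochondrial genes. Lactotroph markers summed to 139 CPM in anterior and 128 in posterior Prl cells, and somatotroph markers to 110.4 and 105 in Gh1 cells. Gonadotroph markers, Lhb included, summed to 39395 and 32387 in Lhb cells, and corticotroph markers to 427.5 and 291 in Pomc cells. The lactotroph markers do not set the Prl class apart. They summed to 50.55 and 149 in Pomc cells, 65 and 80.2 in Gh1 cells and 58.3 and 44.2 in Lhb cells. Mitochondrial shares were near each other, at 5.95% and 5.1% in Prl cells, 7.6% and 7.6% in Gh1 cells, 8.83% and 8.87% in Pomc cells and 11.7% and 12.7% in Lhb cells.

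Gene levels were next compared as counts per 1000000 UMIs of a class (CPM), leaving out the 4 hormone genes and 13 mitochondrial genes. A gene entered when at least 25 UMIs were expected in the smaller sum, and a gene is counted as higher or lower when its level differed at least 2-fold. Most genes stood close together. In the Prl class 80.8% of 10588 genes lay within 1.25-fold, in the Gh1 class 85% of 9600, in the Lhb class 73.7% of 4054, and in the Pomc class 63.4% of 7579. The Prl class had 68 genes higher in the posterior library (0.642%) and 95 lower (0.897%). The Gh1 class had 55 higher (0.573%) and 40 lower (0.417%), and the Lhb class 20 higher (0.493%) and 42 lower (1.04%). The Pomc class stood apart, with 328 higher (4.33%) and 124 lower (1.64%).

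The whole-gland libraries showed how far 2 lanes of the same cells differ by this count. Between the lanes 0.316% of genes differed 2-fold in the Prl class, 0.314% in the Gh1 class, 0.529% in the Pomc class and 0.497% in the Lhb class. Between the posterior library and the summed lanes the shares were 1.55%, 0.899%, 4.75% and 0.872%. Between the anterior library and the summed lanes they were 0.729%, 0.811%, 0.356% and 0.525%. The Pomc class thus set the posterior library apart from both references, whereas in the Gh1 class the anterior library differed from the whole gland about as often as the posterior one did.

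A part of these genes may come from free RNA, which droplets take up from the suspension. A gene is marked as possible free RNA where its level in the class was under 20% of that in the same library's other cells. Without marked genes 29 genes were higher and 52 lower in the Prl class, 13 and 16 in the Gh1 class, 275 and 120 in the Pomc class and 13 and 34 in the Lhb class. Hormone RNA was also measured in a class that does not make it. Median Gh1 was 0.102% of an anterior Prl cell and 0.0376% of a posterior one. Pomc, which made up 7.72% of the posterior library's UMIs and 0.773% of the anterior library's, was 0.0847% of a posterior and 0.00648% of an anterior Prl cell.

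Among the genes that were higher in posterior lactotrophs without a free RNA mark were heat shock genes and Cartpt. Dnajb1, a cochaperone that guides the Hsp70 chaperones to their substrates, stood at 742 CPM in the anterior library, 1659.6 in the posterior, and 556 and 571 in the lanes. The posterior value was the highest of the 4, and its ratio to the anterior one was 2.24 (2.18 to 2.3). Hspb1, a small heat shock protein, stood at 148, 379, 126 and 97.5, a ratio of 2.56 (2.42 to 2.71). LOC108348108, which RefSeq gives as the inducible Hsp70 gene Hspa1b, stood at 1839, 3433, 1352 and 1286, a ratio of 1.87 (1.83 to 1.9). It is uncertain, since near-identical Hsp70 copies share reads: Hspa1a was at 0 in all 4 libraries. For all 3 genes the posterior library was the highest and the anterior library lay above both lanes.

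Dnajb1 and LOC108348108 transcripts were spread over many lactotrophs, whereas Hspb1 sat in few. With each cell thinned to 3000 UMIs, a Dnajb1 UMI was found in 37.55% of anterior and 63.5% of posterior Prl cells, against 29.8% and 33.2% in the lanes. Without thinning the shares were 59.25% and 83.5%. In cells outside the 4 classes the thinned shares ran the other way, at 67.35% anterior and 42% posterior, with median depths of 5912 and 8110.5 UMIs. These other cells differ in kind between the lobes, so their shares here and below do not compare like cells. With pituicyte markers there were 716 posterior cells, at a heat shock sum of 5894 CPM, and 0 anterior cells. For LOC108348108 the thinned shares were 57.7% and 80.8% of Prl cells, and 72.95% and 90.4% unthinned, against 75.9% and 62.55% thinned in other cells. The cell richest in Dnajb1 held 1.25% of its posterior Prl class UMIs, so no single cell set that level. For Hspb1 the richest 5% of Prl cells held 91.1% of anterior and 79% of posterior UMIs. An Hspb1 UMI was found in 12.9% and 33.4% of Prl cells unthinned and 5.78% and 12.8% thinned, against 32.35% and 49.2% thinned in cells outside the classes.

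As a list the heat shock genes were higher together in posterior lactotrophs. Of 14 genes listed 12 had enough UMIs in the Prl class, 11 of these had a ratio above 1, 2 were at least 2-fold higher and none was 2-fold lower, while over all genes of the class 44.05% were above 1 and 0.642% at least 2-fold higher. Their median log2 ratio was 0.70, against −0.03 over all genes of the class. Dnaja1, a cochaperone, had a ratio of 1.81 (1.75 to 1.86), and Bag3, which links chaperones to protein disposal, 1.9 (1.71 to 2.12). Hspa8, the constitutive Hsp70, had 1.68 (1.64 to 1.73), and Hsph1, a nucleotide exchange factor for it, 1.56 (1.46 to 1.67). The mitochondrial chaperonin genes Hspd1 and Hspe1 were closer to 1, at 1.25 and 1.27, as was Hsp90ab1 at 1.14. Hsf1, the transcription factor that switches these genes on, was the member below 1, at 0.873 (0.675 to 1.12). The list was chosen with earlier results of these data known.

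Zfand2a and Serpinh1 belong to no list but are known as heat shock responsive genes. Zfand2a stood at 49.3, 104, 30.5 and 34.9 in the anterior, posterior and lane libraries, a ratio of 2.11. Serpinh1, the collagen chaperone, stood at 36.7, 82.5, 44.7 and 43.4, a ratio of 2.25. Both were chosen after their values were seen, and in both the posterior library alone was high.

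The sequences here show where a heat shock element, the site that Hsf1 binds, occurs at the start of list genes that hold a match. Not all genes of the list do. They are RefSeq promoter windows on assembly GRCr8, from 250 bases before to 50 after the gene start, 5' to 3' on the gene's strand. Capitals mark the motif GAANNTTCNNGAA searched on both strands. The Dnaja1 window is chr5:60638154-60638453 on the plus strand, Hspa8 is chr8:50080264-50080563 plus with 2 matches, and Hsph1 is chr12:10427118-10427417 plus.
Dnaja1: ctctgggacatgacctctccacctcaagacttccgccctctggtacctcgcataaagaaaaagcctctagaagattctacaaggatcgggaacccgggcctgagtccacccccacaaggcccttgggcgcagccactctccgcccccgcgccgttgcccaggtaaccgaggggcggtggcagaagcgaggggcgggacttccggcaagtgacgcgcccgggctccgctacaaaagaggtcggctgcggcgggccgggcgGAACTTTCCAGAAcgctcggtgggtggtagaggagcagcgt
Hspa8: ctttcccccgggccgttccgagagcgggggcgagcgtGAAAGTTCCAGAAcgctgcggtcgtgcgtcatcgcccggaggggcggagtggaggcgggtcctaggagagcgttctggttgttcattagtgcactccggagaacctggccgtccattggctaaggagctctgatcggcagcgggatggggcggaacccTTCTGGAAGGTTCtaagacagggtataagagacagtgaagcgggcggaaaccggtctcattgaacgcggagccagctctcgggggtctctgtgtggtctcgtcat
Hsph1: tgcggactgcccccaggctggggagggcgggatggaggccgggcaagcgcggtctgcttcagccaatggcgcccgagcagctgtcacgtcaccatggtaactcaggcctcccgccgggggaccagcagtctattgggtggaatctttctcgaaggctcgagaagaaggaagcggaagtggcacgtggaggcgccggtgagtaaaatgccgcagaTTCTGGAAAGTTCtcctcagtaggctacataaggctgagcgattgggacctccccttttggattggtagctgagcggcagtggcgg
Of 33469 windows 267 held the motif (0.798%). It was found in 5 of the 10 heat shock list windows, those of Dnaja1, Hspa8, Hspd1, Hspe1 and Hsph1, and in 0 of 17 immediate early windows. A match is a description of these letters only. Hspb1, whose ratio was 2.56, has no match in its window, and Hspd1 and Hspe1 had the motif with ratios close to 1. Dnajb1 was also not among the genes with a match.

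**Figure D2:**
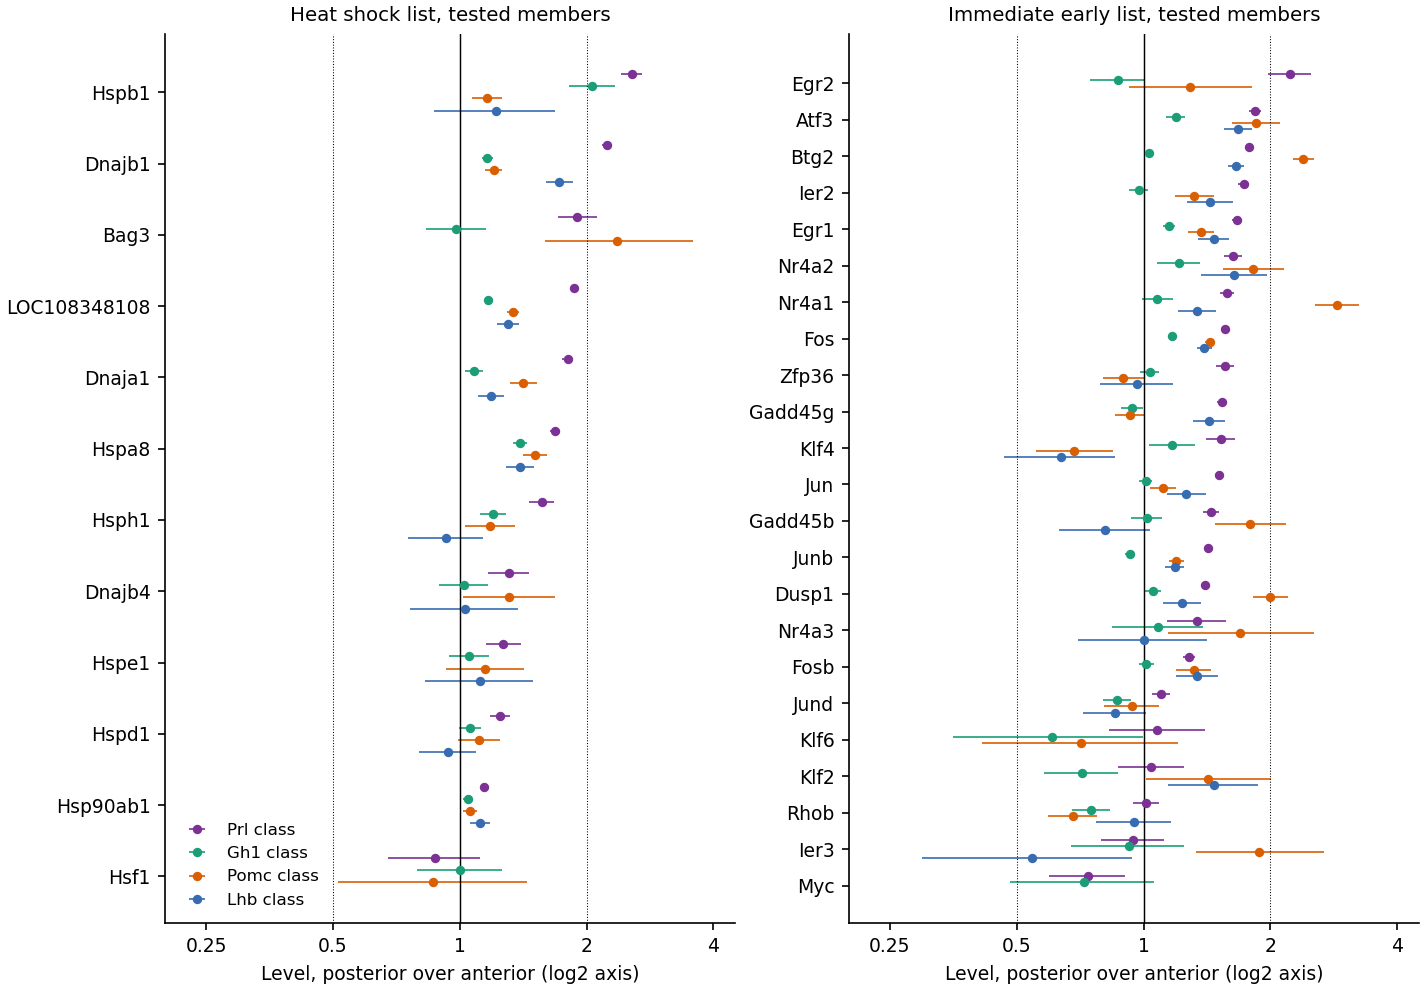
Level in the posterior library over that in the anterior library (log2 axis) for each tested gene of the heat shock list (left) and the immediate early list (right), by class, with 95% counting intervals. A solid line marks 1 and dotted lines 2-fold; Prl class points lie furthest right for Dnajb1, Hspb1, Egr2 and most other genes, while Gh1 class points gather near 1.

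Immediate early genes were also higher in posterior lactotrophs. Of 23 genes with enough UMIs 21 had a ratio above 1, 12 were above 1.5 and 1, Egr2, was above 2, while over all genes of the class 2.16% were above 1.5. The median log2 ratio was 0.60. Fos, a subunit of the AP-1 factor, stood at 5217 CPM in the anterior library, 8156 in the posterior, and 4684 and 4757 in the lanes, a ratio of 1.56 (1.55 to 1.58). Egr2 stood at 38.2, 85, 33.5 and 32.2, a ratio of 2.22 (1.98 to 2.5). Atf3, a stress-induced factor, stood at 484, 891, 306 and 318, a ratio of 1.84 (1.78 to 1.9). As for the heat shock genes, the posterior library was the highest and the lanes the lowest.

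Other members were Btg2, an antiproliferative gene, at 1.77, Ier2 at 1.73, Egr1 at 1.66, Nr4a2 at 1.63, Nr4a1 at 1.58 and Jun at 1.51. Ier3 at 0.945 and Myc at 0.737 (0.597 to 0.903) were the members below 1. Among genes outside the list, Socs3, which damps cytokine signalling, stood at 259, 495, 232 and 218, a ratio of 1.91 (1.82 to 2). In cells of 10000 to 20000 UMIs its ratio was 1.2, so for Socs3 cells of like depth differed less. Npas4, an activity-regulated factor, stood at 37, 80, 26.8 and 26.6, a ratio of 2.16, and was named after its values were seen.

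The size of the difference varied by class. Summed over the heat shock list, Prl cells stood at 7099 CPM in the anterior library, 11422 in the posterior, and 6051 and 5918 in the lanes. Gh1 cells stood at 9311, 10643, 8401 and 7835, Pomc cells at 11083, 13733, 10448 and 10281, and Lhb cells at 7314, 9235, 6528 and 6578. In each class the posterior library was the highest and the anterior library above both lanes. The posterior to anterior ratio was 1.61 in Prl cells, 1.14 in Gh1 cells, 1.24 in Pomc cells and 1.26 in Lhb cells. Median log2 ratios of the list were 0.70, 0.10, 0.25 and 0.21, with 11 of 12, 11 of 12, 11 of 12 and 8 of 10 genes above 1. Of all genes in these classes 44.05%, 52.1%, 48.4% and 46.8% were above 1. Whether classes differed was not tested, since each had 1 library a side.

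For the immediate early list the summed ratio was 1.53 in Prl cells, 1.07 in Gh1 cells, 1.41 in Pomc cells and 1.38 in Lhb cells. Genes above 1 numbered 13 of 23 in the Gh1 class, 16 of 22 in the Pomc class and 14 of 20 in the Lhb class, with medians of 0.02, 0.43 and 0.38. Over all genes 52.1%, 48.4% and 46.8% were above 1, with medians of 0.0092, −0.012 and −0.019. In the Gh1 class the count of the list thus lay near the share of all genes. Between the whole-gland lanes the same list had medians of 0.0016, −0.02, 0.06 and −0.04 in the Prl, Gh1, Pomc and Lhb classes, and the heat shock list −0.01, −0.10, −0.04 and −0.06. Against the summed lanes the heat shock medians were 0.91, 0.34, 0.44 and 0.20 for the posterior library and 0.27, 0.16, 0.10 and 0.20 for the anterior library. The anterior library thus also lay above the whole gland, and in the Lhb class by as much as the posterior library.

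**Figure D3:**
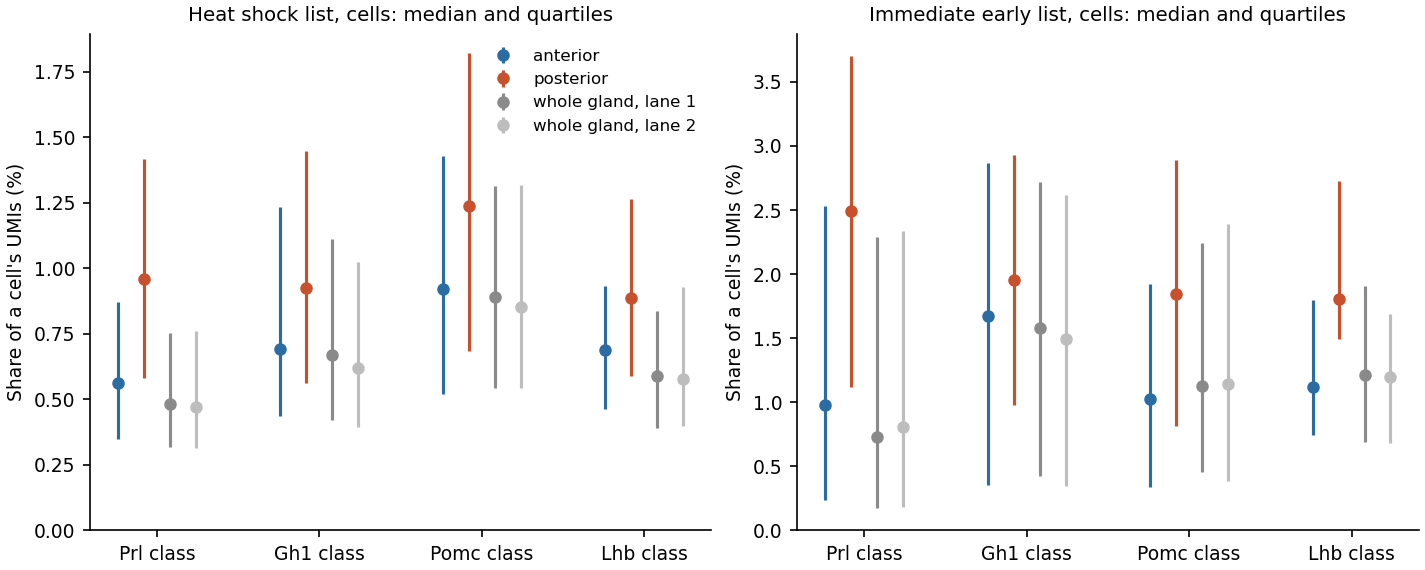
Share (%) of a cell's UMIs, counted without the hormone and mitochondrial genes, in heat shock list genes (left) and immediate early list genes (right). Points give the median and quartiles over the cells of each class and library. Posterior medians are the highest in every class; in the Prl class the immediate early median is 2.5% in the posterior library and 0.729 to 0.978% in the others.

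The per-cell plot gives the same lists over single cells. Shares here are of a cell's UMIs left after the hormone and mitochondrial genes, not of all its UMIs. In the median Prl cell heat shock genes took 0.561% of these UMIs in the anterior library, 0.959% in the posterior, and 0.482% and 0.469% in the lanes. Immediate early genes took 0.978%, 2.5%, 0.729% and 0.806%. The quartile ranges overlapped, from 0.233 to 2.53% in anterior and from 1.12 to 3.7% in posterior Prl cells, and the medians lay further apart than either quartile. In Gh1 cells the immediate early medians were 1.67% and 1.95%.

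At like depth the lactotroph difference was still present. In Prl cells of 10000 to 20000 UMIs, which were 1232 anterior and 69 posterior cells, the heat shock sum was 1.43 times (1.39 to 1.47) as high in the posterior library. At 20000 to 40000 UMIs, with 616 and 293 cells, it was 1.53 times as high, and at 5000 to 10000 UMIs, with 414 and 25 cells, 1.35 times. The immediate early sum was 1.33, 1.47 and 1.89 times as high in these bands. In Gh1 cells it was 0.968, 1.09 and 0.594 times as high, and the heat shock sum 1.23, 1.06 and 0.884 times, so the direction in somatotrophs turned with depth. For the immediate early sum the ratios were 1.12, 1.12 and 1.83 in the Pomc class and 1.73, 1.11 and 1.48 in the Lhb class. For the heat shock sum they were 1.23, 1.41 and 1.11 in the Pomc class and 1.29, 1.18 and 1.48 in the Lhb class.

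In cells outside the classes the ratios were closer to 1 than in the Prl class or below 1. Heat shock sums were 1.09 times as high in posterior as in anterior cells with folliculostellate markers, 1.2 times in macrophages, 1.17 times in endothelial cells and 0.914 times in fibroblasts. Immediate early sums were 0.807, 1.13, 1.02 and 0.741 times as high. Over all other kept cells the immediate early sum was lower in the posterior library, at 21275 against 46547 CPM, a ratio of 0.457. That sum mixes cell types in different shares, as the posterior library held 716 cells with pituicyte markers, at 3126 CPM, and the anterior library 0.

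Other lists in lactotrophs varied, against a median of −0.03 over all genes, of which 44.05% were above 1. Of 17 listed receptors for hypothalamic signals 4 had enough UMIs, with a median log2 ratio of −0.55 and 0 of 4 above 1. Imprinted genes had −0.19 with 1 of 8 above 1. Apoptosis and p53 genes had 0.26 with 8 of 10 above 1, and cytokine and NF-kB response genes 0.12 with 7 of 11 above 1. Summed levels were 1.41 times as high in the posterior library for the cytokine list, 1.3 times for lineage transcription factors and 1.29 times for glucocorticoid-induced genes. The unfolded protein response genes, which serve the secretory pathway, had a median log2 ratio of −0.0042 with 11 of 22 above 1. The hypoxia and glycolysis, oxidative phosphorylation and granule cargo lists had medians of −0.0036, −0.017 and −0.044. Granin genes, whose products help to form granules, varied by gene: Chgb was 1.05 times, Scg2 1.26 times and Vgf 1.47 times as high in the posterior library. Of the receptor lists, Drd2, the dopamine receptor that restrains prolactin release, stood at 82, 75.6, 74.7 and 74.7, a ratio of 0.922 (0.828 to 1.02). Esr1, the estrogen receptor, was at 0.777, Pgr, the progesterone receptor, at 0.589 and Trhr, the thyrotropin-releasing hormone receptor, at 0.639, or 1.1 in cells of 10000 to 20000 UMIs. Pou1f1, the factor that lactotrophs and somatotrophs need, was at 1.17 (1.13 to 1.2), but the lanes, at 980 and 984, lay above both the posterior library at 895 and the anterior at 768.

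Cartpt, which encodes a secreted neuropeptide, differed 2-fold in lactotrophs without a free RNA mark. It stood at 1132 CPM in the anterior library, 2620.3 in the posterior, and 823 and 907 in the lanes. The ratio was 2.31 (2.27 to 2.36). The posterior library alone was high, and the anterior library lay slightly above the lanes. The RNA sat in few cells: the richest 5% of Prl cells held 88.1% of anterior and 83.4% of posterior Cartpt UMIs. After thinning, 11.8% of anterior (10.5 to 13.1) and 16.7% of posterior Prl cells (13.4 to 20.4) had a Cartpt UMI, with 7.48% and 6.84% in the lanes, and before thinning 17.3% and 24.9%. In cells outside the classes, which differ in kind between the lobes, 3.47% and 1.15% had one after thinning. The cell richest in Cartpt held 8.93% of its posterior UMIs, and without the richest cell of each library the ratio was 2.17.

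The Cartpt promoter is shown because the gene is the main neuropeptide among these differences. Its window is chr2:32991186-32991485 on the minus strand of GRCr8, and capitals mark the cAMP response element TGACGTCA, searched on both strands.
Cartpt: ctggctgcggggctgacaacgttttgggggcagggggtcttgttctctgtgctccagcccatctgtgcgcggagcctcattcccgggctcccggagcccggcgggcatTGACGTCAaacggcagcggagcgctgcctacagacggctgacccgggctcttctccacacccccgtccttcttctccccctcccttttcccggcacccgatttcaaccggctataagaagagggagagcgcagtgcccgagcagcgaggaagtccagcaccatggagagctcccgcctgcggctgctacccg
Of all windows 612 held this motif (1.83%), as did 4 of 17 immediate early windows (Btg2, Dusp1, Ier2 and Jund) and 1 of 10 heat shock windows, that of Hsp90ab1.

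Galanin showed another order of the libraries. Gal, a neuropeptide gene that estrogen induces in lactotrophs, stood at 1242.5 CPM in the anterior library and 925 in the posterior, but at 2493 and 2589.9 in the lanes. Both dissected libraries were thus lower than both lanes, and the posterior to anterior ratio was 0.745 (0.723 to 0.767). In posterior Prl cells 1 cell held 21.2% of the Gal UMIs. Without the richest cell of each library the ratio was 0.603, and in cells of 10000 to 20000 UMIs 0.391. Among genes that were lower, Pvalb, a calcium buffer, stood at 63.9, 24, 33.4 and 31.4, a ratio of 0.377 (0.315 to 0.448), and here the anterior library alone was high. In cells of 10000 to 20000 UMIs its ratio was 0.146.

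Several lower genes in lactotrophs carry the free RNA mark or belong to other hormone cells. Tshb, the thyrotropin subunit, stood at 139, 15.5, 128 and 52.5, a ratio of 0.112, and Gpha2 at 241, 41.3, 169 and 123, a ratio of 0.171; both are marked. Cd74, an antigen presentation gene, was marked too, at 109.9, 12.2, 54.3 and 76.7. Fshb at 0.0885 and Gnrhr, the receptor of gonadotropin-releasing hormone, at 0.328 were unmarked gonadotroph genes, and Gnrhr was at 0.0237 without the richest cells. Fshb had 10 of its 12 posterior UMIs in 1 cell, and was at 0.0273 without the richest cells and 0.208 in cells that met only 1 rule. Thyrotroph markers summed to 168 CPM in anterior and 34.1 in posterior Prl cells, and gonadotroph markers, Lhb included, to 395 and 110.3. Most of the gonadotroph sum was Lhb, with 6290 of 7031 anterior and 622 of 670 posterior UMIs. The part of these other cells in the lower levels was not tested.

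The reverse held for RNA of posterior cells. Igfbp2 stood at 2.36 CPM in anterior and 126 in posterior Prl cells, a ratio of 53.5, but at 3632 in the other posterior cells, and is marked. Pituicyte markers summed to 5.67 in anterior and 72 in posterior Prl cells, fibroblast markers to 128 and 302, and Avp with Oxt, whose RNA lies in neurohypophysial axons, to 0.281 and 19.6. Dcn, a fibroblast gene without a mark, was at 2.06, and Col3a1, which is marked, at 4.83 with 84.8% of its posterior UMIs in 1 cell and 1.26 without the richest cells. Lymphocyte markers summed to at most 0.55 CPM in any class and library. Histone gene Hist2h3c2 (ENSRNOG00000049198) stood at 39.9, 112, 45 and 38.9, a ratio of 2.81, but 1.06 in cells of 10000 to 20000 UMIs. Histone genes have near-identical copies, so its level is uncertain.

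Somatotrophs had the largest share of genes within 1.25-fold of the 4 classes. Their receptors lay close together, with Ghrhr, the receptor of growth hormone-releasing hormone, at 101, 96.4, 95.6 and 94.3 CPM in the anterior, posterior and lane libraries, a ratio of 0.953 (0.839 to 1.08). Ghsr, the ghrelin receptor, had a ratio of 0.895 (0.567 to 1.38), and Pou1f1 0.993 (0.941 to 1.05). Heat shock genes lay slightly above 1, with Hspa8 at 1.39 (1.34 to 1.45), LOC108348108 at 1.17 and Dnajb1 at 1.16. Hspb1 was at 2.06 but marked as possible free RNA. Fos was at 1.17 and Junb at 0.926.

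The genes that led the Gh1 class had much of their RNA in single cells or carry the mark. Hbb, a haemoglobin gene of red blood cells, had 478 of its 496 posterior UMIs in 1 cell, and Vip, a neuropeptide gene, 115 of 120. Without the richest cells Vip had a ratio of 0.603 in place of 9.84, and Hbb 4.61 in place of 113. Cga, the common subunit of glycoprotein hormones, stood at 377, 51.3, 383 and 475, but 1880 of the 2913 anterior UMIs were in 1 cell. Without the richest cells Cga was still lower, at a ratio of 0.347. Ptn, a growth factor gene, at 24.1 and 126 was marked, as were Igfbp2 and LOC108348061. Dlk1, an imprinted gene abundant in somatotrophs, was level at 4402 and 4816.

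The Pomc class mixed cell types to different degrees in both lobes. A cell with a Pax7 UMI or at least 2 Pcsk2 UMIs was taken as carrying melanotroph RNA, since Pax7 sets melanotroph identity and Pcsk2 makes melanocyte-stimulating hormone. Such cells were 1 of 269 in the anterior library (0.372%), 120 of 218 in the posterior (55%, 48.2 to 61.8), and 13 of 301 and 15 of 294 in the lanes (4.32% and 5.1%). The posterior library alone was high. Outside the class, kept cells above 30% Pomc numbered 35 anterior cells, 0 of which carried the markers, and 430 posterior cells, of which 403 did. The Pomc limit therefore kept the posterior cells with the least Pomc of a larger group.

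**Figure D4:**
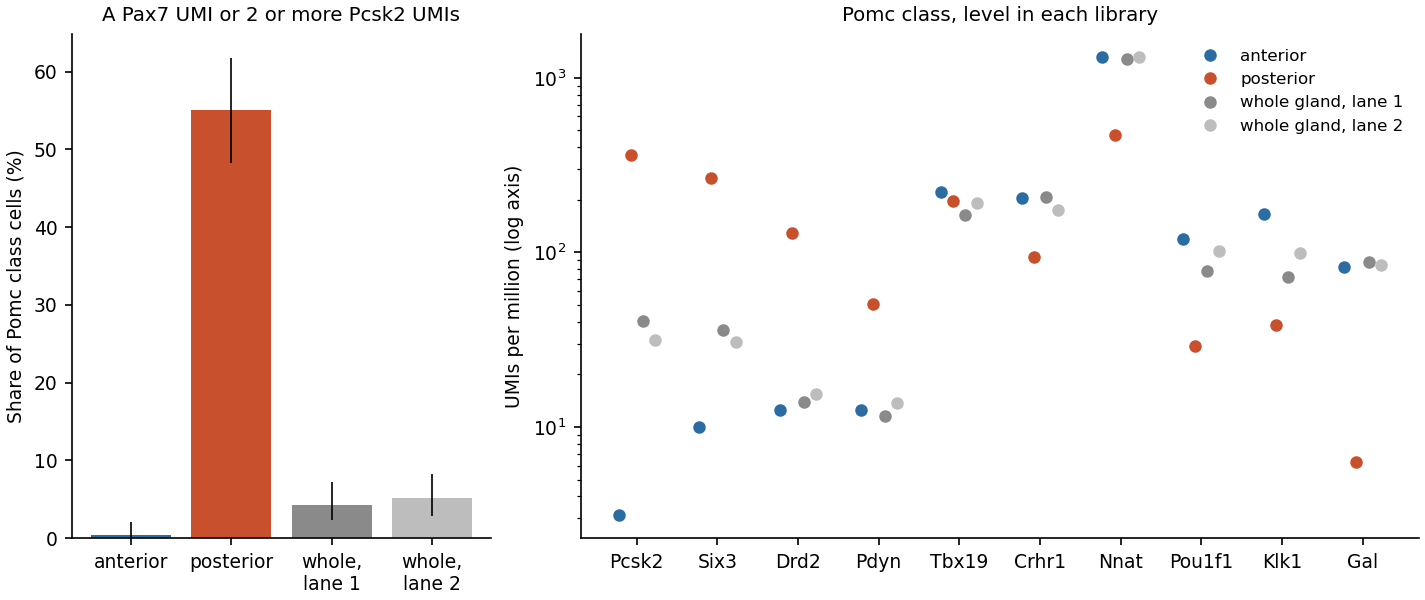
Left, share of Pomc class cells (%) with a Pax7 UMI or at least 2 Pcsk2 UMIs in each library, with exact 95% binomial intervals; right, level in CPM (log axis) of 10 genes in the 4 libraries. The posterior library is far above the others for Pcsk2, Six3, Drd2 and Pdyn and below them for Nnat, Pou1f1, Klk1 and Gal, while the anterior library and the lanes lie together for most genes.

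Melanotroph genes led the Pomc class. Pax7 stood at 0 CPM in the anterior library, 101 in the posterior, and 12.2 and 6.6 in the lanes, at least 53.8-fold higher in the posterior library against a floor of 3 anterior UMIs. Pcsk2 stood at 3.12, 362, 40.6 and 31.3, a ratio of 116 (49.5 to 359). Drd2, through which dopamine restrains melanotrophs, stood at 12.5, 129, 13.9 and 15.4, a ratio of 10.4 (6.57 to 17.3). Six3 had a ratio of 26.7 and Pdyn, an opioid precursor gene, 4.05. Oacyl, also at 0 in the anterior library, was at least 72.5-fold higher. In each the lanes lay between both lobes or beside the anterior library.

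Several corticotroph genes were lower in the same comparison. Crhr1, the corticotropin-releasing hormone receptor, stood at 206, 93.9, 207 and 175 CPM, a ratio of 0.456 (0.378 to 0.548). Tbx19, which both corticotrophs and melanotrophs need, was closer to level, at 222, 197, 164 and 192, a ratio of 0.89 (0.768 to 1.03). Nnat, an imprinted gene, stood at 1320.6, 467, 1279 and 1313, a ratio of 0.354. Neurod1, a corticotroph factor, was at 0.578. Gal, named above as a lactotroph gene, was at 0.076 (0.0383 to 0.137), or 0.281 in cells that met only 1 rule. Of its anterior UMIs 88.6% were in 14 of the 269 cells. Avpr1b, a vasopressin receptor gene of corticotrophs, was at 0 CPM in this class in all 4 libraries.

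The lower Pou1f1 level in posterior Pomc cells, 29.2 against 119 in the anterior library and 78.4 and 101 in the lanes, concerns a factor of other lineages. Thyrotroph markers were also lower, at 178.5 anterior and 7.3 posterior CPM. In the lanes, at 23.2 and 18.1, they lay nearer the posterior library, whereas Pou1f1 lay nearer the anterior one. The part of thyrotroph RNA was not tested. Of the 279 anterior Tshb UMIs 245 were in 1 cell, and without it Tshb was at 21.2 CPM. Fibroblast and macrophage markers were higher, summing to 8.74 and 1.25 in the anterior and 294 and 198 in the posterior Pomc class. Single cells held much of this: 173 of the 227 Col3a1 UMIs and 99 of the 196 C1qa UMIs were in 1 cell each.

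Stress genes in the Pomc class included Nr4a1, which corticotropin-releasing hormone induces, at 213, 612, 232 and 282, a ratio of 2.88 (2.55 to 3.25). Btg2 was at 2.39 and Bag3 at 2.37. Nr4a1 stood at 813 in posterior cells with the melanotroph markers, and at 374 in posterior and 211 in anterior cells without them. Without the melanotroph-marked cells, 98 posterior and 268 anterior cells were left, and 21 genes were higher and 23 lower of 5298. Of the higher genes 7 carried the free RNA mark, as did 4 of the lower ones. The highest ratios were of Lum, Col3a1 and Apod, each with 0 anterior UMIs, then of Igfbp2 at 25.8 and Dcn at 22.95. Lum, Col3a1 and Dcn are fibroblast markers. In the whole class 170 of the 209 posterior Dcn UMIs were in 1 cell. Cell cycle genes Ube2c and Cdk1 were at 4.54 and 2.635. Gem, a small GTPase, was at 3.12 (2.51 to 3.9), Bag3 at 2.8 (1.8 to 4.41) and Fosl2 at 2.43, and the heat shock list median was 0.55. Gal at 0.11, Klk1, a kallikrein gene, at 0.316 and Pou1f1 at 0.286 were lower, although in cells that met only 1 rule the whole class had Klk1 at 0.887 and Gal at 0.281. Drd2 was at 1.45, Pcsk2 at 7.26, Crhr1 at 0.811, Nnat at 0.705 and Btg2 at 1.54 without the melanotroph-marked cells. Pcsk2 is itself a gene of the rule that removed cells. RNA of melanotroph genes still remained in the posterior cells left. Six3 stood at 53.5 CPM there and 10 in the anterior ones, from 47 and 16 UMIs, and Oacyl at 18.2 and 0, from 16 and 0. Neither is among the 44 genes past 2-fold without the marked cells. These 44 genes stand against 452 of 7579 in the whole class.

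Gonadotrophs were few, with 56 posterior cells, so single cells weighed heavily. Cartpt stood at 49.4 CPM in the anterior library, 795 in the posterior, and 27.4 and 32.8 in the lanes, a ratio of 16.1 (13.1 to 20). But 569 of the 611 posterior UMIs were in 1 cell, and without the richest cell of each library the ratio was 1.45 (0.972 to 2.13). Cited2, a transcriptional coactivator, stood at 59.7, 213, 116 and 92.5, a ratio of 3.58 (2.82 to 4.54), and 3.24 without the richest cells. Ccnq had 122 of 274 posterior UMIs in 1 cell and a ratio of 3.23, or 2.01 without the richest cells. For Cited2 the posterior library was the highest and the anterior library the lowest.

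The hormone machinery of gonadotrophs was less different. Fshb, the follicle-stimulating hormone subunit, stood at 2135, 3354, 2702 and 2473, a ratio of 1.57 (1.5 to 1.65), and 1.06 in cells of 10000 to 20000 UMIs. Gnrhr stood at 1469.8, 1024, 1245 and 1251, a ratio of 0.697 (0.643 to 0.753). Nr5a1, the factor that marks the lineage, was at 0.991 (0.815 to 1.2). Gata2, a regulator of the gonadotroph and thyrotroph lineages, was at 1.69, and Chga at 1.4. Gnrhr was lowest and Fshb highest in the posterior library, with the lanes in between.

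Genes lower in posterior gonadotrophs were led by Dlk1. It stood at 119 CPM in the anterior library and 1.3 in the posterior, where it had 1 UMI, and at 47.8 and 122 in the lanes, a ratio of 0.0109 (0.000276 to 0.0615). Klk1 stood at 104, 7.8, 83.6 and 90.7, a ratio of 0.0751, or 0.178 in cells that met only 1 rule. Pvalb stood at 195, 52, 105 and 101, a ratio of 0.267 (0.188 to 0.37), again with the anterior library the highest. Nnat was at 0.466 and Pgr at 0.506. Gal at 0.233 was 1.53 once cells that met 2 rules were left out.

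Few genes recurred across classes. Higher in at least 3 classes were 13 genes, among them Igfbp2, LOC108348061, Gsta4, Mdk, Apod, Scn7a and Cldn10, and lower were 5: Gpha2, Tshb, Klk1, Pvalb and Hba-a3. Nearly every one of the higher genes carried the mark in nearly every class, and Scn7a is itself a pituicyte marker. Of the lower genes Pvalb, Klk1 and Hba-a3 were unmarked, but the mark cannot show free RNA from another hormone class. Klk1 was at 1445 CPM in anterior Prl cells and 15 CPM in anterior Gh1 cells, each without its richest cell. Pvalb had ratios of 0.377, 0.308, 0.48 and 0.267 in the Prl, Gh1, Pomc and Lhb classes, but 0.975 in Pomc cells without the melanotroph markers. These classes share their 2 libraries, so recurrence is not independent. The plot of recurrent genes shows how far below the other cells' level each lay.

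**Figure D5:**
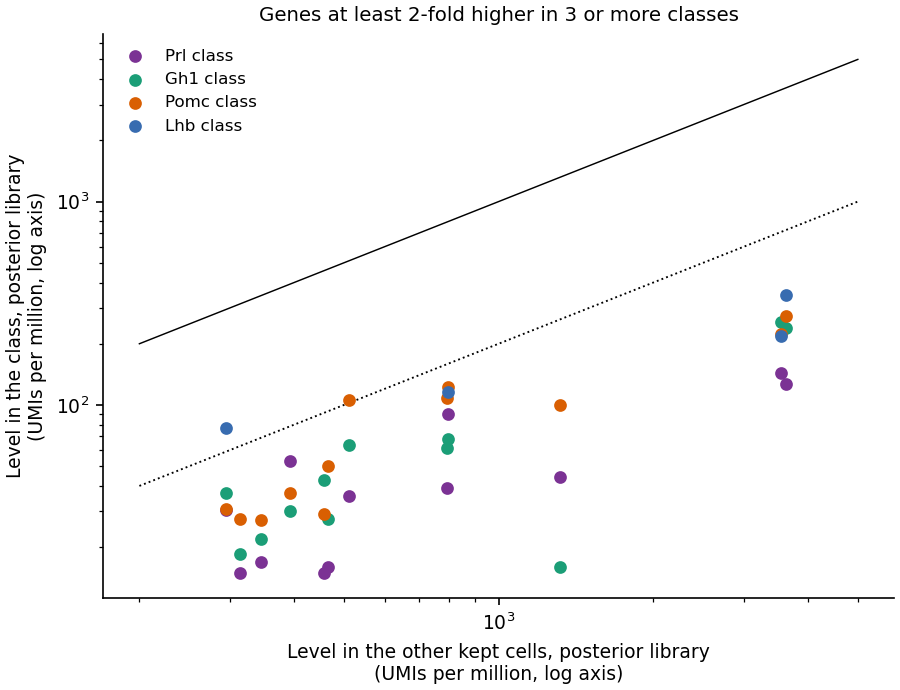
Level of the recurrent higher genes in each class of the posterior library against their level in that library's other kept cells (CPM, log axes). The solid line marks equal levels and the dotted line 20% of the other cells' level; all but a few points lie under the dotted line.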

How the data were processed

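The deposited values were UMI counts per gene and cell barcode in 1 matrix of 32883 genes and 32455 barcodes, made by the authors with Cell Ranger 3.1 per the submitters' processing notes. The genome build, the annotation and any equalizing of read depth between libraries are not given in the sources used here. Barcode suffixes gave each cell's library per the labels, and no column was left unmapped. The cells and the 36 gene lists were chosen with earlier results of these data known. Counts were summed per class and library, and ratios carry exact conditional 95% counting intervals. A count of 3 UMIs was the floor where a library had 0. With 1 library a side no test was possible. Genes were named where they had the 6 highest or 6 lowest ratios of a class, past 2-fold with at least 100 CPM in the higher library, were past 2-fold in at least 3 classes, or were the 3 members of a list with the highest level; class markers were described, and other genes, mostly further list members, were named after their values were seen. Cells above a Scrublet score of 0.25 (expected rate 0.06; 163 anterior, 104 posterior) were kept, and leaving them out was an alternative, as were other filters, limits, scalings and depth. The procedure was tested on simulated data. Python 3.11.15, numpy 2.4.6, scipy 1.17.1, pandas 2.3.3, scanpy 1.11.5 and matplotlib 3.10.9 were used. 1 result is not reported here.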

Additional observations from a re-analysis of the deposited data

Results flagged for a closer look

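Cartpt differed in opposite directions between classes. Its posterior to anterior ratio was 2.31 (2.27 to 2.36) in the Prl class and 16.1 (13.1 to 20) in the Lhb class, and 0.43 (0.239 to 0.732) in the Gh1 class. The difference between classes was not tested, since each ratio compares 1 library with 1 library. In the Lhb class 1 cell held 93.1% of the posterior UMIs, and without the richest cells the ratio was 1.45. In the Gh1 class Cartpt was at 10.5 CPM in the anterior and 4.51 CPM in the posterior library, from 81 and 17 UMIs, and its ratio was 0.867 in cells of 10000 to 20000 UMIs.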

How the results depend on the processing

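The counts of genes past 2-fold were 163 in the Prl class, 95 in the Gh1 class, 452 in the Pomc class and 62 in the Lhb class. They followed how many genes were compared: with at least 50 UMIs expected they were 86, 35, 203 and 22, and with at least 10 they were 434, 316, 1046 and 250. With the mean share over cells in place of summed UMIs they were 309 in the Prl and 99 in the Lhb class. Without possible free RNA they were 81 in the Prl and 29 in the Gh1 class. The Gh1 count was 52 without Scrublet doublets and 43 with higher hormone limits. Without Pax7 or Pcsk2 cells the Pomc count was 44 and the posterior share 2.49%. In cells of 10000 to 20000 UMIs, where fewer genes could be compared, the Prl count was 38 (4 higher, 34 lower) and the Pomc count 95. Leaving out either whole-gland lane gave 188 to 190 genes between the posterior library and the whole gland in the Prl class, 106 to 121 in the Gh1, 413 to 452 in the Pomc and 34 to 51 in the Lhb class.

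Shares of kept cells moved with the filters, and the Prl and Gh1 shares were lower in the posterior library under each of them. At most 10% mitochondrial UMIs gave 50.3% anterior and 20.7% posterior Prl cells, 27.4% and 15.2% Gh1 cells and 6.99% posterior Pomc cells. At least 5000 UMIs gave 47% and 15.2% (Prl), 25% and 12.9% (Gh1) and 6.96% (posterior Pomc). Higher hormone limits gave 39.9% anterior Prl, 18.9% anterior and 7.95% posterior Gh1 and 3.67% anterior Pomc cells.

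Named ratios reversed for Col3a1 in the Prl class (0.696 without doublets, 0.705 in cells of 1 class), Aldoc in the Lhb class (2.28 without doublets), Igfbp5 in the Gh1 class (1.22 with higher limits), Gal in the Lhb class (1.53 in cells of 1 class), and in the Pomc class without Pax7 or Pcsk2 cells for C1qb (0), Cd74 (0.75) and S100b (0.643). In cells of 10000 to 20000 UMIs Lum (0.457) and Pcsk2 (0.244) reversed in the Prl class, as did the immediate early median of the Pomc class (−0.0043). The cause was not tested. The settings with cells of 1 class, without richest cells and of 10000 to 20000 UMIs were chosen after seeing the data. Of 378 named ratios 376 stayed within their interval at 5000 or more UMIs and 246 with the mean over cells. Fewer did so in cells of 10000 to 20000 UMIs, where it was 133 of 372, and without Pax7 or Pcsk2 cells, where it was 42 of 95.

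No paired analysis was possible because each lobe had 1 library. The 56 posterior Lhb cells limit that class most, and fewer than 10 were left at 10% mitochondrial UMIs, so no value was given.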

Other observations

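Among 8 cell cycle genes of the Pomc class 7 had a ratio above 1 and 4 were at least 2-fold higher in the posterior library, against 48.4% and 4.33% of all genes. Their summed level was lower there, at 2382 anterior and 2108 posterior CPM, with Stmn1, the most abundant member, at 0.718. Top2a, which untangles DNA in dividing cells, stood at 7.49 CPM in the anterior library, 28.2 in the posterior, and 1.74 and 0.55 in the lanes, a ratio of 3.76 (1.99 to 7.73). In the posterior library 27 of its 54 UMIs were in 1 cell, and in the anterior library 11 of 12. Of 8 genes of interferon response and antigen presentation 1 had a ratio above 1 in the same class, with 1 at least 2-fold higher, 1 at least 2-fold lower and a summed ratio of 0.931. Isg15, a ubiquitin-like protein induced by interferon, stood at 96.7, 28.2, 58.6 and 96.8, a ratio of 0.291 (0.21 to 0.399), and Psmb9, an immunoproteasome subunit, was at 0.53 (0.442 to 0.636). Both whole-gland lanes lay above the posterior library for these genes, and 65 of the 155 anterior Isg15 UMIs were in 1 cell.

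In lactotrophs ribosomal protein genes lay slightly below 1 in 20 of 21 cases, with none past 2-fold, and 44.05% of all genes of the class were above 1. Cacna1g, a T-type calcium channel gene, was the 1 ion channel gene of 16 past 2-fold, at 22.9 anterior and 8.56 posterior CPM, with 10.5 and 12.8 in the lanes and a ratio of 0.373 (0.274 to 0.499). In gonadotrophs the imprinted genes did not move together: Cdkn1c, a cell cycle inhibitor, stood at 82, 164, 138 and 143, a ratio of 2 (1.58 to 2.53), while Dlk1 and Nnat were more than 2-fold lower.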
